A study of Homo sapiens with 15 samples.

Results

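The genes described here are 32 named members of the ATF4 amino acid and stress response. They were taken by symbol from a table of 18322 genes, and all 32 were present and among the 17012 genes with enough signal to be tested. They were read across 5 groups of 3 RNA-seq libraries from A375, a human melanoma line driven by mutant BRAF. Parental is the unmodified line, and Resistant is a single clonal population of it that resists PLX4720, an inhibitor of mutant BRAF. MYC T58A is Parental carrying a stabilised form of the transcription factor MYC. By their labels, the shMYC1 and shMYC2 libraries come from Resistant cells given either of 2 short hairpins against MYC. The labels describe ordinary culture for every group and do not give drug exposure at harvest, the promoter that drives MYC T58A or how the hairpins were delivered. The series describes the libraries as biological triplicates, and nothing states that they came from separate resistant clones or separate transductions, so the p-values measure the spread between these libraries.

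When amino acids run short or unfolded proteins build up in the endoplasmic reticulum, kinases such as GCN2 (EIF2AK4) and PERK (EIF2AK3) phosphorylate the initiation factor eIF2. General translation then falls while the mRNA of ATF4, a bZIP transcription factor, is translated more, so the ATF4 transcript alone does not report the activity of its protein. ATF4 binds, with C/EBP partners, to composite C/EBP-ATF elements and raises genes for amino acid uptake, synthesis and tRNA charging, for secreted signals, and for brakes on the pathway. In tumours the programme is known for supplying asparagine, serine, cysteine and glutathione. MYC is also known to act on several of these genes.

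The element was looked for as TGATGNAA on both strands of the RefSeq promoter windows of build GRCh38.p14, each running from 250 bases before to 50 bases after a gene's start. It was present in 6 of the 29 members that have a window (20.7%) and in 1003 of 27305 windows of the same length (3.67%). The 6 were ATF3, ASNS, CHAC1, HERPUD1, SLC3A2 and SLC7A1, and the members without an entry were NUPR1, EIF4EBP1 and SLC7A11. The match lay before the start in the first 4, which are printed here for that reason, with the match in capitals and the gene's own strand read 5′ to 3′. ASNS is on the minus strand and the other 3 are on the plus strand. The GENCODE v29 spans of ASNS and CHAC1 begin further upstream, so by that annotation their matches lie within the gene. A match to these letters is a description of the sequence, and binding was not measured.
ATF3, chr1:212565204-212565235, match from base -191 to -184: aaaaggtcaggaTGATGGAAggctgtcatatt
ASNS, chr7:97872457-97872488, match from base -68 to -61: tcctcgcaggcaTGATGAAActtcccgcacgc
CHAC1, chr15:40953250-40953281, match from base -209 to -202: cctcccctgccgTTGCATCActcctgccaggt
HERPUD1, chr16:56931954-56931985, match from base -176 to -169: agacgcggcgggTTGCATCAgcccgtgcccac
In CHAC1 and HERPUD1 the motif reads along the opposite strand, so the capitals show its reverse complement. ASNS and ATF3 hold different letters at the open position of the motif, and CHAC1 and HERPUD1 share theirs.

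Values are normalised read counts, that is, reads scaled by the size factor of their library, and means are given ± SD with n = 3 libraries. The libraries held 24222192 to 30399644 reads. Libraries of the same group correlated at r = 0.991 to 0.995 across genes, which are not independent replicates. Library 2 labelled shMYC1 differed most from its own group, with a chi-square per gene of 29.4 and 20 against at most 8.24 for other pairs. Without it 20 members were lower and 7 higher than Resistant, though not the same 7, since SLC38A2 lost its call (adjusted p = 0.0874 by limma). The MYC transcript went against the hairpin labels: it was 423 ± 11.9 in Parental, 302 ± 28.1 in Resistant, 486 ± 29.5 under the shMYC1 label, 7817 ± 259.8 under the shMYC2 label and 3511 ± 94.4 with MYC T58A. The groups are therefore called by their labels, and no direction below is read as an effect of lowering MYC. The libraries labelled shMYC2 stood apart from all others, with r between 0.807 and 0.829 and with 1636 to 1694 genes without a read against 296 to 665 elsewhere. Those labelled shMYC1 were closer to Parental (r = 0.972 to 0.974) than to Resistant (r = 0.937 to 0.942), the labelled source. Their differences from Resistant therefore cannot be read as changes within resistant cells. The markers of the labelled melanocyte were mixed. SOX10 was 5282 ± 149 in Parental, 7.5 ± 2.52 in Resistant, 11890 ± 1138 under the shMYC1 label, 19.5 ± 3.74 under the shMYC2 label and 9.14 ± 1.99 with MYC T58A. MITF was 1509 ± 1.76, 3748 ± 233, 1620 ± 118, 173 ± 23 and 3592 ± 194 in the same order. In Resistant against Parental 2 of the 7 listed melanocyte and melanoma genes were higher, 2 lower and 3 not called. The summed melanocyte and melanoma list (7 genes in the table) ran from 191 to 244 under the shMYC2 label, with DCT and GPR143 at 0, and from 3571 to 15472 in the other groups. The summed fibroblast list (9 genes, none at 0) was 3971 to 4189 in Resistant and 2444 to 2543 under the shMYC2 label, against 432 to 635 in the other groups. The keratinocyte and epithelial list (5 genes) was 11684 to 12939 with MYC T58A and 2913 to 8136 elsewhere, with KRT5 at 0 under the shMYC2 label. The endothelial (4 genes) and immune (2 genes) lists reached at most 164 and 278 in any library. The part of these shifts in the results was not tested, and in bulk RNA a change in the mix of cells and a change within each cell cannot be told apart.

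In Resistant cells most of the response was higher than in Parental. Of the 32 members, 21 were called higher, 4 lower and 7 neither, where a call is an adjusted p under 0.05 over all tested genes. The count of lower members was 2 without Parental library 3 or without Resistant library 1. Calls were common in this comparison: of all 17012 genes, 51.6% were called, 27.2% as higher and 24.4% as lower. The median log2 difference of the members was 0.43, against 0.01 over all genes, and 9 members rose by at least 1 on the log2 scale, as did 8.07% of all genes. The libraries did not overlap for 27 members, against 63.5% of all genes. By role, all 9 transcription factors and all 5 metabolic enzymes rose, while of 7 amino acid transporters 2 rose, 2 fell and 3 were not called.

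With MYC T58A more members rose than fell, and members fell no more often than genes in general. Against Parental, 16 members rose, 9 fell and 7 were not called, against 63.8% of all genes called (30.1% higher and 33.7% lower), with a median log2 difference of 0.14 beside -0.02 over all genes. The libraries did not overlap for 29 members and for 72.7% of all genes. The 5 enzymes rose again, but ATF4 itself, DDIT3, SESN2, DDIT4, SLC6A9, SLC1A4, VLDLR, KLHL24 and XPOT fell. The call for KLHL24 was lost with quantile normalisation (adjusted p = 0.0539).

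Under either hairpin label most members were lower than in Resistant. In the libraries labelled shMYC1, 20 fell, 7 rose and 5 were not called, with a median of -0.42 beside -0.03 over all genes and with 57.1% of all genes called (27% higher and 30.1% lower). In those labelled shMYC2, 21 fell, 7 rose and 4 were not called, with a median of -0.81 beside -0.08 over all genes and with 79.2% of all genes called (36.2% higher and 43% lower). With equal library totals 4 members, in place of 7, were higher under the shMYC2 label. Of all genes called there 45.7% were higher, and 56% with quantile normalisation. The libraries did not overlap for 28 members in each, against 60.1% and 81.3% of all genes. Both comparisons share the Resistant libraries with the comparison of Resistant with Parental, so a high value in those 3 libraries enters all of them. The heat map of values by library shows the members by role.

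**Figure D1:**
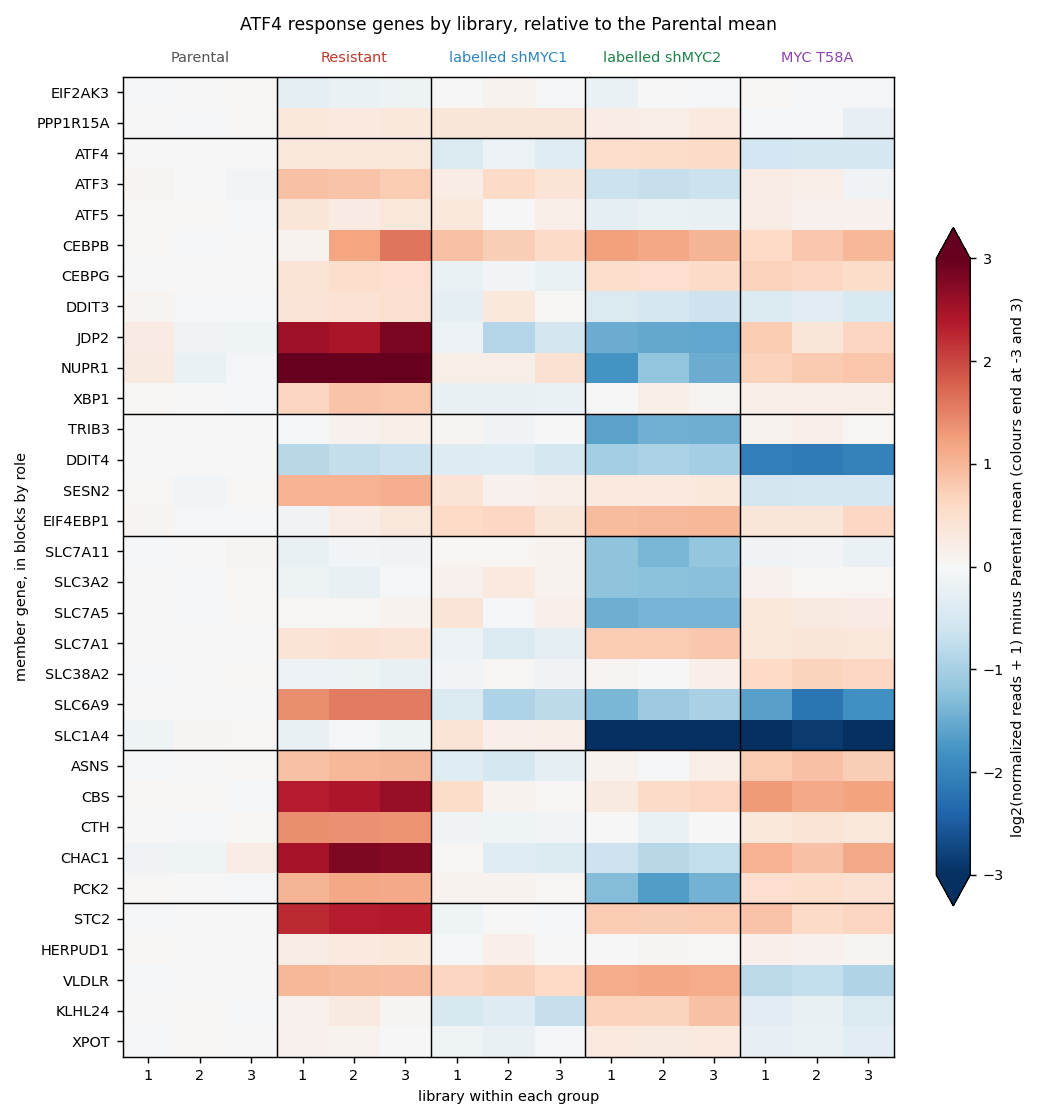
Heat map of the 32 members (rows, grouped by role) in the 15 libraries (columns, 3 per group), with colour giving the log2 value minus the mean of the Parental libraries. All 5 metabolic enzymes are highest in the Resistant columns, and SLC1A4 goes past the lower end of the colours in the columns labelled shMYC2.

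Among the sensors and brakes at the top of the pathway, differences were small. EIF2AK3, the PERK kinase, held 524, 547 and 561 in Parental, 452, 472 and 488 in Resistant, 538, 583 and 529.6 under the shMYC1 label, 473, 549 and 528 under the shMYC2 label and 568, 531 and 523 with MYC T58A. The Resistant libraries sat below all Parental ones, and the levels of neighbouring groups in the order overlapped throughout. EIF2AK3 fell 1.16-fold in Resistant (log2 difference -0.21 with SE 0.0675, adjusted p = 0.015), a call that was lost without Parental library 3 (adjusted p = 0.0603) or Resistant library 1 (adjusted p = 0.0571). It was 1.17-fold higher under the shMYC1 label than in Resistant, a call that was lost with equal library totals (adjusted p = 0.0604), and was not called with MYC T58A (adjusted p = 0.908). PPP1R15A, or GADD34, steers the phosphatase that takes the phosphate off eIF2 again. Its values were 2630.02, 2579 and 2733 in Parental, 3362, 3243 and 3319 in Resistant, 3388, 3396 and 3381 under the shMYC1 label, 3111, 3029.9 and 3261 under the shMYC2 label and 2597, 2530.3 and 2222 with MYC T58A. Every Resistant library lay above every Parental library, and MYC T58A overlapped Parental. PPP1R15A rose 1.25-fold in Resistant (log2 difference 0.32 with SE 0.0527, adjusted p = 5.38e-05) and was called in neither hairpin comparison with Resistant.

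The transcript of ATF4 itself was highest under the shMYC2 label and lowest with MYC T58A. It was at 4403, 4337 and 4380.4 in Parental, 5413, 5523 and 5569.7 in Resistant, 3244, 3869.8 and 3392 under the shMYC1 label, 6306, 6376 and 6491 under the shMYC2 label and 2955, 3044 and 3066 with MYC T58A. The 5 groups did not overlap, and their order ran from the shMYC2 label through Resistant, Parental and the shMYC1 label down to MYC T58A. ATF4 rose 1.26-fold in Resistant (log2 difference 0.33 with SE 0.0515, adjusted p = 3.09e-05) and fell 1.45-fold with MYC T58A (log2 difference -0.53 with SE 0.0515, adjusted p = 6.02e-08). Against Resistant it was 1.58-fold lower under the shMYC1 label (log2 difference -0.66 with SE 0.0515, adjusted p = 4.78e-09) and 1.16-fold higher under the shMYC2 label (log2 difference 0.22 with SE 0.0515, adjusted p = 0.000916). The last call depended on scaling: it was lost with equal library totals (adjusted p = 0.228) and with quantile normalisation (adjusted p = 0.225).

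The widest changes among the other transcription factors were in NUPR1 and JDP2. NUPR1, a small stress-induced chromatin protein, stood at 30.1, 21.5 and 24 in Parental, 985, 982 and 1082 in Resistant, 28.5, 28.2 and 34.4 under the shMYC1 label, 6.46, 10.4 and 8.18 under the shMYC2 label and 41.1, 43.6 and 45 with MYC T58A. The Resistant libraries were far above all others, MYC T58A came next, and the libraries labelled shMYC2 were lowest. All folds here are on the scale of log2(value + 1), which understates low genes. Its log2 difference of Resistant from Parental was 5.29, and it was 32.5-fold lower under the shMYC1 label and 110.3-fold lower under the shMYC2 label than in Resistant (adjusted p = 6.9e-14 and 1.26e-16). With MYC T58A it was 1.7-fold higher than in Parental (log2 difference 0.77 with SE 0.17, adjusted p = 0.000909). JDP2, a bZIP repressor that pairs with JUN and ATF proteins, had 48.8, 37.9 and 37.6 in Parental, 243, 229 and 297 in Resistant, 36.1, 22.1 and 27.7 under the shMYC1 label, 14, 13.6 and 13.3 under the shMYC2 label and 70.1, 53 and 64.3 with MYC T58A. No neighbouring groups in its order overlapped, with Resistant at the top and the shMYC2 label at the bottom. It rose by 2.60 on the log2 scale in Resistant, and it was 8.8-fold lower under the shMYC1 label and 17.5-fold lower under the shMYC2 label than in Resistant. The rise of JDP2 with MYC T58A (1.5-fold, adjusted p = 0.0116) was lost without MYC T58A library 1 (adjusted p = 0.0542).

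ATF3, an early stress factor whose promoter window holds the first printed element, was at 311, 289 and 278 in Parental, 541, 532 and 496 in Resistant, 342, 433 and 387 under the shMYC1 label, 186, 180.4 and 187 under the shMYC2 label and 341, 335 and 269.7 with MYC T58A. Resistant was highest and the shMYC2 label lowest, neither overlapping another group, while Parental and MYC T58A overlapped. ATF3 rose 1.79-fold in Resistant (log2 difference 0.84 with SE 0.10, adjusted p = 1.01e-06), and against Resistant it fell 1.36-fold under the shMYC1 label and 2.82-fold under the shMYC2 label (adjusted p = 0.00084 and 8.28e-11). DDIT3, or CHOP, links prolonged stress to cell death. Its libraries gave 414, 385 and 381 in Parental, 513, 528 and 545 in Resistant, 325, 490.5 and 401 under the shMYC1 label, 289, 278 and 256 under the shMYC2 label and 293, 311 and 285 with MYC T58A. Resistant again stood above every other library, and MYC T58A and the shMYC2 label shared the lowest levels. DDIT3 rose 1.34-fold in Resistant (log2 difference 0.43 with SE 0.11, adjusted p = 0.00256) and fell 1.33-fold with MYC T58A (log2 difference -0.41 with SE 0.11, adjusted p = 0.00267). XBP1, whose spliced form drives another arm of the unfolded protein response and which the table gives as 1 value for all forms, was 1312 ± 35.6 in Parental, 2260.1 ± 183 in Resistant, 1128 ± 8.47 under the shMYC1 label, 1400.3 ± 69.96 under the shMYC2 label and 1491 ± 12.9 with MYC T58A. It rose 1.72-fold in Resistant. Its Resistant libraries lay above all others, and it fell 2-fold under the shMYC1 label and 1.61-fold under the shMYC2 label against Resistant (adjusted p = 4.84e-11 and 2.07e-09).

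The remaining factors were less uniform. CEBPG, a bZIP partner of ATF4, rose in Resistant (from 1097 ± 10.8 to 1529 ± 71.6) and with MYC T58A (1697 ± 77.5, log2 difference 0.63), fell under the shMYC1 label (979 ± 42.4), and was not called under the shMYC2 label (1588 ± 41.2). ATF5, a relative of ATF4 that is also regulated through translation, lay within a narrow range, from 743 ± 20.1 under the shMYC2 label to 1093 ± 46.7 in Resistant. It rose 1.25-fold in Resistant and fell 1.47-fold under the shMYC2 label. CEBPB, a C/EBP factor of stress and inflammation, had an uneven Resistant group of 704, 1473 and 1966 beside 667, 633 and 652 in Parental. Its call as higher in Resistant (log2 difference 0.96 with SE 0.29, adjusted p = 0.0153) was lost without Resistant library 2 (adjusted p = 0.0548) and when only these 2 groups were fitted (adjusted p = 0.125). CEBPB with MYC T58A, at 979.8, 1138 and 1306, was called higher than Parental (adjusted p = 0.0299), and that call was lost without any single Parental library (adjusted p = 0.0575, 0.0671 and 0.0624) and without MYC T58A library 2 or 3 (adjusted p = 0.0636 and 0.089).

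The 5 metabolic enzymes moved as 1 group. They rose together in Resistant and, by less, with MYC T58A, and each was lower under both hairpin labels than in Resistant. In every one the order began with Resistant and MYC T58A, and these groups did not overlap each other or the next group. ASNS, which makes asparagine from aspartate and glutamine and carries the second printed element, held 1496, 1551 and 1584 in Parental, 2846, 3055 and 3139.9 in Resistant, 1199, 1068 and 1254 under the shMYC1 label, 1663, 1514 and 1762 under the shMYC2 label and 2598, 2838 and 2589.6 with MYC T58A. Resistant and MYC T58A stood above the other 9 libraries, and the shMYC1 label was lowest. ASNS with MYC T58A was 1.73-fold higher than Parental (log2 difference 0.79 with SE 0.0662, adjusted p = 9.19e-09), and against Resistant it fell 2.57-fold under the shMYC1 label and 1.83-fold under the shMYC2 label (adjusted p = 6.86e-12 and 7.84e-10). CHAC1, which breaks down glutathione and carries the third printed element, had 40.5, 39.9 and 51.1 in Parental, 248, 308 and 299.5 in Resistant, 45.7, 33.5 and 32.5 under the shMYC1 label, 28, 24 and 25.6 under the shMYC2 label and 90.2, 81 and 97 with MYC T58A. The Resistant libraries were above all others and those labelled shMYC2 below all others. CHAC1 rose by 2.68 on the log2 scale in Resistant and 2.02-fold with MYC T58A (log2 difference 1.02 with SE 0.16, adjusted p = 2.53e-05), and against Resistant it was 7.54-fold lower under the shMYC1 label and 10.6-fold lower under the shMYC2 label.

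CBS and CTH carry sulphur from homocysteine to cysteine in successive steps. CBS, which makes cystathionine, stood at 183, 181 and 170.1 in Parental, 915, 967 and 1093 in Resistant, 261, 191 and 182 under the shMYC1 label, 216, 265 and 274 under the shMYC2 label and 433, 391 and 409.9 with MYC T58A. Resistant was far above the other groups and MYC T58A was second, while the 2 hairpin labels overlapped. CBS rose 5.53-fold in Resistant (log2 difference 2.47 with SE 0.12, adjusted p = 1.25e-11) and, by less, 2.3-fold with MYC T58A (log2 difference 1.20 with SE 0.12, adjusted p = 9.21e-08). CBS has a near-identical copy in some genome builds, and how reads were shared between copies is not given in the sources used here. CTH, which splits cystathionine into cysteine, had 140.2, 135 and 143 in Parental, 366, 365 and 356 in Resistant, 129, 128 and 131 under the shMYC1 label, 139, 122 and 138 under the shMYC2 label and 177, 187 and 176 with MYC T58A. The order of the top groups was the same, and Parental and the hairpin labels lay close together below them. CTH rose 2.59-fold in Resistant (log2 difference 1.37 with SE 0.0834, adjusted p = 2.34e-10) and, by less, 1.29-fold with MYC T58A (log2 difference 0.37 with SE 0.0834, adjusted p = 0.000894). PCK2, the mitochondrial enzyme that makes phosphoenolpyruvate, held 354, 340.03 and 337 in Parental, 699, 773 and 754 in Resistant, 368, 371 and 349.9 under the shMYC1 label, 138, 106 and 128 under the shMYC2 label and 489, 492 and 469 with MYC T58A. Its lowest level was under the shMYC2 label, apart from all other libraries. PCK2 rose 2.15-fold in Resistant (log2 difference 1.11 with SE 0.0829, adjusted p = 3.67e-09), fell 2.04-fold under the shMYC1 label and fell 5.97-fold under the shMYC2 label against Resistant (adjusted p = 6.81e-09 and 3.01e-15).

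**Figure D2:**
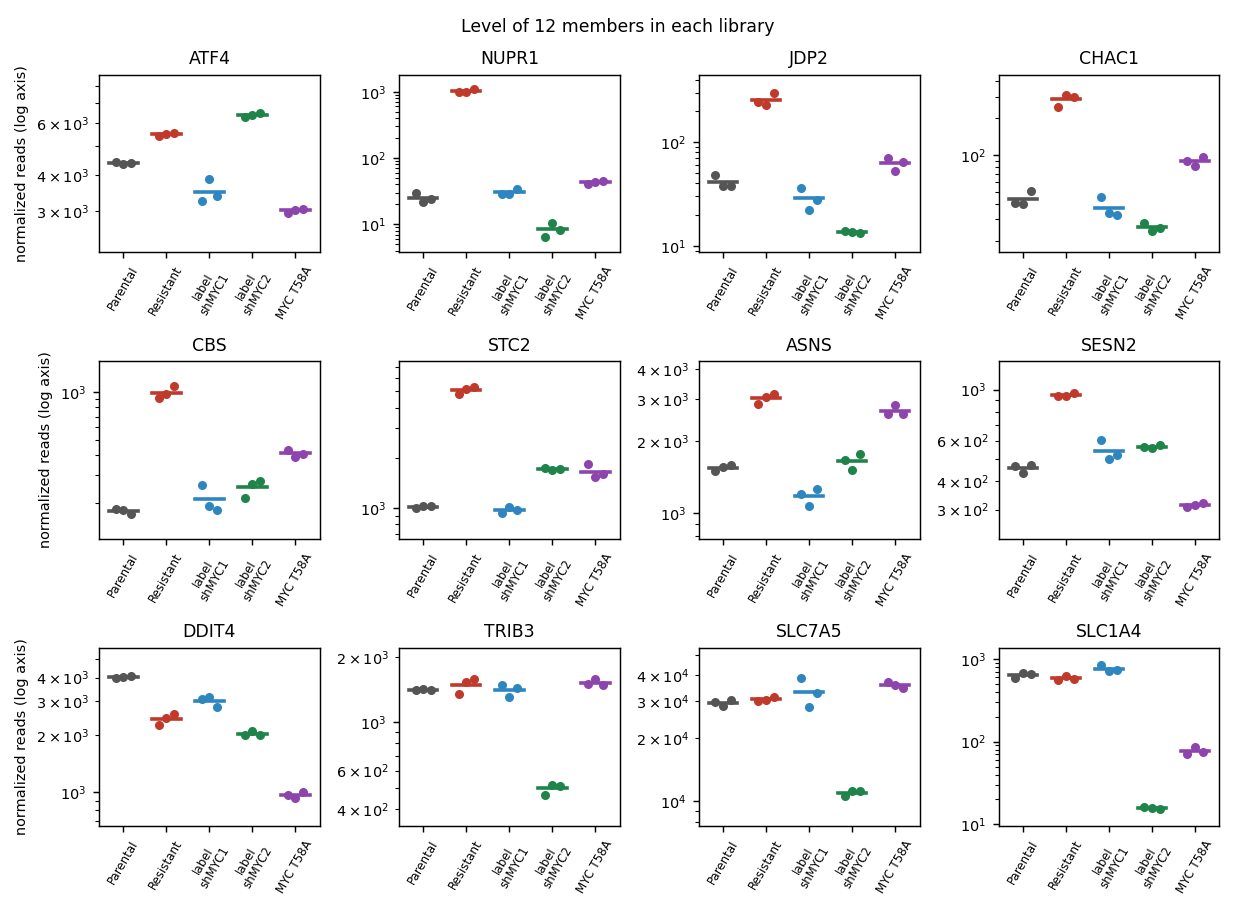
Normalised read counts (log axis) of selected members in each library, 1 panel per gene, with the 5 groups on the x axis, points for the 3 libraries and a bar for their mean. NUPR1, CHAC1 and CBS peak in Resistant, whereas SLC1A4 is lowest under the shMYC2 label (16.1, 15.6 and 15.3).

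Amino acid transporters did not move as 1 group. Against Parental, Resistant had 2 higher, 2 lower and 3 not called, counts near the shares of all genes (27.2% higher and 24.4% lower). The libraries labelled shMYC2 had 5 lower than Resistant and 2 higher, beside 43% of all genes lower and 36.2% higher. SLC6A9, the glycine transporter GlyT1, was at 136, 135 and 137 in Parental, 361, 399.5 and 399.7 in Resistant, 101, 70.6 and 78.4 under the shMYC1 label, 51.7, 63.6 and 68.5 under the shMYC2 label and 43.1, 29.1 and 37 with MYC T58A. All neighbouring groups in the order were apart, from Resistant down to MYC T58A. SLC6A9 rose 2.83-fold in Resistant (log2 difference 1.50 with SE 0.16, adjusted p = 2.55e-07) and fell 3.71-fold with MYC T58A (log2 difference -1.89 with SE 0.16, adjusted p = 7.77e-09). It fell 4.65-fold under the shMYC1 label and 6.26-fold under the shMYC2 label against Resistant. SLC1A4, or ASCT1, carries serine, alanine and other neutral amino acids and gave 589.8, 684 and 656 in Parental, 551, 626 and 574 in Resistant, 850.5, 714 and 739 under the shMYC1 label, 16.1, 15.6 and 15.3 under the shMYC2 label and 70.1, 87.3 and 74 with MYC T58A. Parental and Resistant overlapped, the shMYC1 label was slightly above both, and MYC T58A and the shMYC2 label were far below. SLC1A4 fell 8.27-fold with MYC T58A (log2 difference -3.05 with SE 0.10, adjusted p = 3.21e-14) and 34.9-fold under the shMYC2 label against Resistant (log2 difference -5.13 with SE 0.10, adjusted p = 2.69e-18), while the shMYC1 label was 1.31-fold higher (log2 difference 0.39 with SE 0.10, adjusted p = 0.00277).

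The cystine exchanger xCT is a pair of SLC7A11 with the heavy chain SLC3A2, and SLC3A2 also carries the leucine transporter SLC7A5. These 3 genes behaved alike in 1 respect: each was lowest in the libraries labelled shMYC2, apart from every other library. SLC7A11 held 2006, 2051 and 2190.2 in Parental, 1781, 1977 and 1935 in Resistant, 2171, 2175 and 2256 under the shMYC1 label, 901, 798 and 931 under the shMYC2 label and 1948, 1970.4 and 1810.4 with MYC T58A. The other 4 groups lay within a narrow band. SLC7A11 was not called in Resistant against Parental (log2 difference -0.13, adjusted p = 0.0746) and fell 2.17-fold under the shMYC2 label against Resistant (log2 difference -1.12 with SE 0.0608, adjusted p = 6.63e-12). SLC3A2 had 10300.00, 9745 and 10561 in Parental, 9129, 8723 and 9714 in Resistant, 11231, 12528 and 10977 under the shMYC1 label, 4390.5, 4353 and 4241 under the shMYC2 label and 11127, 10580.1 and 10599.9 with MYC T58A. Resistant was the next lowest group, just below Parental. SLC3A2 was called 1.11-fold lower in Resistant (adjusted p = 0.0232), a call that was lost without Parental library 1 or 3 or Resistant library 1 or 2 (adjusted p = 0.0688, 0.102, 0.055 and 0.12). Under the shMYC2 label SLC3A2 fell 2.12-fold against Resistant (log2 difference -1.08 with SE 0.053, adjusted p = 1.35e-12). SLC7A5, or LAT1, stood at 29853, 28617 and 30359 in Parental, 30236, 30497 and 31601 in Resistant, 38814, 28202 and 33002 under the shMYC1 label, 10644, 11241 and 11199.7 under the shMYC2 label and 37201, 35958 and 34856 with MYC T58A. Parental, Resistant and the shMYC1 label overlapped in turn, with MYC T58A at the top. SLC7A5 rose 1.22-fold with MYC T58A (log2 difference 0.28 with SE 0.0774, adjusted p = 0.00459) and fell 2.79-fold under the shMYC2 label against Resistant (log2 difference -1.48 with SE 0.0774, adjusted p = 1.86e-11).

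Of the other transporters, SLC7A1, the cationic amino acid carrier CAT1, was 6615 ± 77.6 in Parental, 8896 ± 134 in Resistant, 5387 ± 478 under the shMYC1 label, 11340.1 ± 176 under the shMYC2 label and 8443 ± 112 with MYC T58A. All neighbouring groups were apart, and the shMYC2 label was highest. It fell 1.66-fold under the shMYC1 label and rose 1.27-fold under the shMYC2 label against Resistant. SLC38A2, or SNAT2, the glutamine and alanine carrier, ranged from 11551 ± 307 in Resistant to 20194 ± 576 with MYC T58A. It rose 1.55-fold with MYC T58A (log2 difference 0.63 with SE 0.0461, adjusted p = 1.5e-09). Its rises against Resistant under the shMYC1 label (1.09-fold) and the shMYC2 label (1.2-fold) were lost with quantile normalisation (adjusted p = 0.915 and 0.368). The former was also lost without Resistant library 3 or shMYC1 library 2 (adjusted p = 0.0873 and 0.0874).

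The members that restrain AKT, mTORC1 or translation each had a pattern of their own. SESN2, which holds back mTORC1 when leucine is low, was at 465, 432 and 469 in Parental, 937, 939 and 964 in Resistant, 602, 499 and 520.01 under the shMYC1 label, 561, 557 and 571 under the shMYC2 label and 309, 315 and 319 with MYC T58A. Resistant was highest and MYC T58A lowest, and the hairpin labels overlapped each other between them. SESN2 rose 2.08-fold in Resistant (log2 difference 1.06 with SE 0.0664, adjusted p = 3.7e-10) and fell 1.45-fold with MYC T58A (log2 difference -0.53 with SE 0.0664, adjusted p = 1.52e-06). DDIT4, or REDD1, blocks mTORC1 through the TSC complex and held 3967, 4034 and 4084 in Parental, 2257, 2446 and 2565 in Resistant, 3093, 3154 and 2795 under the shMYC1 label, 1985, 2086 and 1991 under the shMYC2 label and 959, 931 and 993 with MYC T58A. It was the single member that was highest in Parental, and all neighbouring groups were apart. DDIT4 fell 4.19-fold with MYC T58A (log2 difference -2.07 with SE 0.0546, adjusted p = 1.45e-15), and against Resistant it was 1.24-fold higher under the shMYC1 label and 1.2-fold lower under the shMYC2 label. TRIB3, a pseudokinase that binds AKT and ATF4, gave 1414, 1419.5 and 1401 in Parental, 1349, 1533 and 1584 in Resistant, 1491, 1312 and 1431 under the shMYC1 label, 464, 516 and 511 under the shMYC2 label and 1508, 1576 and 1479 with MYC T58A. The other 4 groups overlapped in turn, and the shMYC2 label stood far below them. TRIB3 was not called in Resistant against Parental (log2 difference 0.07, adjusted p = 0.367) or with MYC T58A (adjusted p = 0.159), and it fell 2.99-fold under the shMYC2 label against Resistant (log2 difference -1.58 with SE 0.0646, adjusted p = 1.03e-13). EIF4EBP1, which blocks the cap-binding factor eIF4E, was 1663 ± 92.4 in Parental, 1853 ± 287 in Resistant, 2405 ± 244 under the shMYC1 label, 3254 ± 54.3 under the shMYC2 label and 2264 ± 239 with MYC T58A. It rose 1.36-fold with MYC T58A, and it was 1.3-fold and 1.77-fold higher than Resistant under the shMYC1 and shMYC2 labels.

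Of the 5 secreted, receptor, export and quality-control members, 3 rose in Resistant and 2 were not called, beside 51.6% of all genes called and 27.2% higher. STC2, a secreted glycoprotein of the stress response, held 995, 1034 and 1029.9 in Parental, 4838, 5182 and 5326 in Resistant, 929, 1015 and 974 under the shMYC1 label, 1734, 1692 and 1719 under the shMYC2 label and 1831, 1526 and 1605 with MYC T58A. Resistant lay above all other libraries, the shMYC2 label and MYC T58A overlapped below it, and the shMYC1 label overlapped Parental. STC2 rose 5.01-fold in Resistant (log2 difference 2.32 with SE 0.0603, adjusted p = 2.4e-15) and less, 1.62-fold, with MYC T58A (log2 difference 0.69 with SE 0.0603, adjusted p = 1.55e-08), and against Resistant it fell 5.25-fold under the shMYC1 label and 2.98-fold under the shMYC2 label. VLDLR, a lipoprotein receptor, was 342 ± 5.25 in Parental, 665 ± 15.5 in Resistant, 541 ± 22 under the shMYC1 label, 746 ± 12.3 under the shMYC2 label and 195 ± 10.7 with MYC T58A. It rose 1.94-fold in Resistant and fell 1.76-fold with MYC T58A. Its small rise under the shMYC2 label against Resistant (1.12-fold) was lost with equal library totals (adjusted p = 0.749) and without Resistant library 3 or shMYC2 library 2 (adjusted p = 0.0501 and 0.059).

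Of the last 3 members only HERPUD1 was called in Resistant against Parental. KLHL24, an adaptor of a ubiquitin ligase, was 336 ± 9.82 in Parental, 375 ± 25.3 in Resistant, 236 ± 25.4 under the shMYC1 label, 566 ± 48.6 under the shMYC2 label and 268 ± 21.1 with MYC T58A, and it was not called in Resistant (adjusted p = 0.158). XPOT, which exports tRNA from the nucleus, ranged from 8615 ± 343 with MYC T58A to 12457 ± 48.1 under the shMYC2 label. Its rise under the shMYC2 label against Resistant (1.15-fold) was lost with equal library totals and with quantile normalisation (adjusted p = 0.268 and 0.584). HERPUD1, which serves the degradation of misfolded proteins and carries the fourth printed element, ranged from 1439 ± 34.2 in Parental to 1752 ± 57.7 in Resistant. It rose 1.22-fold in Resistant (log2 difference 0.28 with SE 0.0513, adjusted p = 0.000152) and fell 1.19-fold and 1.19-fold under the shMYC1 and shMYC2 labels. Its call with MYC T58A (adjusted p = 0.0478) was lost without any single MYC T58A library (adjusted p = 0.12, 0.1 and 0.0535) and without Parental library 2 or 3 (adjusted p = 0.122 and 0.121).

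**Figure D3:**
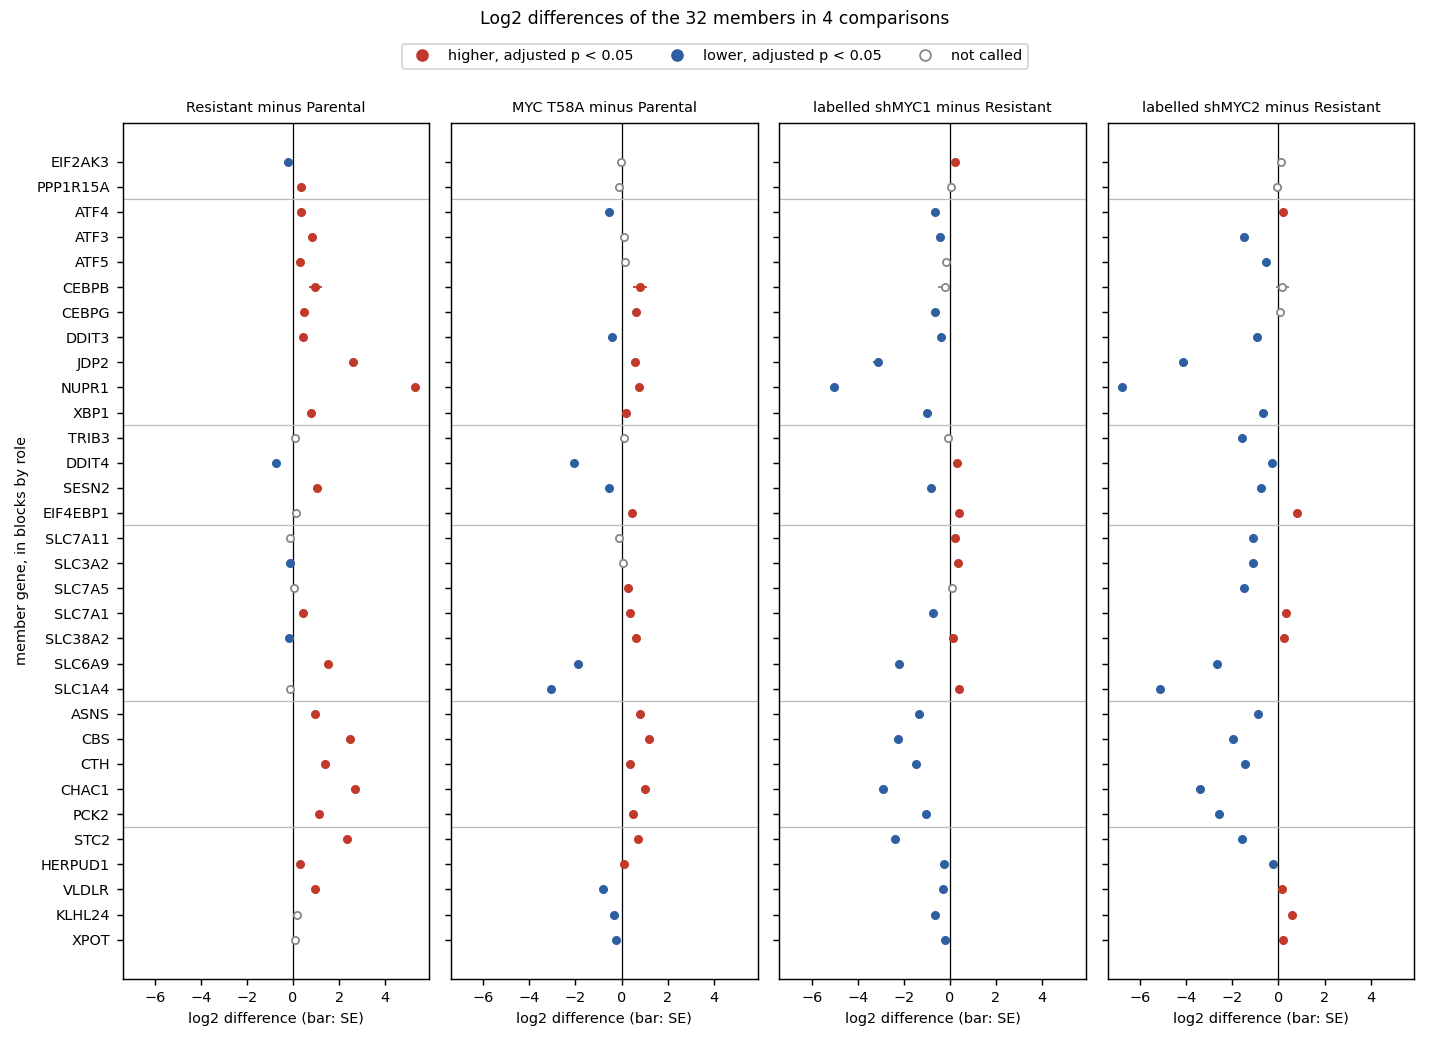
Log2 differences (points) with their standard errors (bars) for each of the 32 members in 4 comparisons, filled where called at an adjusted p under 0.05. NUPR1 has the largest rise in Resistant against Parental (5.29), and the 5 metabolic enzymes lie below 0 under both hairpin labels.

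The libraries labelled shMYC1 were also compared with Parental, the line from which Resistant came. Of the 32 members, 16 were not called, 6 rose and 10 fell, against 39.6% of all genes called (19.7% higher and 19.9% lower), and the median log2 difference was 0.02. Of all genes called here 49.8% were higher, and 37.5% with equal library totals. The libraries did not overlap for 19 members and for 50.7% of all genes. The called members farthest from Parental were SLC6A9 (log2 difference -0.72) and VLDLR (0.66). NUPR1 (adjusted p = 0.246), CHAC1 (0.265), CBS (0.15), CTH (0.342), PCK2 (0.492) and STC2 (0.405) were not called, which does not show that their levels were equal. ASNS and ATF4 fell 1.32-fold and 1.25-fold.

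MYC T58A was also compared directly with Resistant. It had 22 members lower, 6 higher and 4 not called, against 67.8% of all genes called (31.8% higher and 36% lower), and the libraries did not overlap for 29 members and for 72.8% of all genes. The count of higher members was 3 without MYC T58A library 1 or without Resistant library 1. NUPR1 was 23-fold lower (log2 difference -4.52 with SE 0.17, adjusted p = 1.51e-13) and SLC6A9 10.5-fold lower (log2 difference -3.39 with SE 0.16, adjusted p = 1.82e-12). Each of the 5 enzymes was lower, from 3.16-fold for CHAC1 to 1.13-fold for ASNS. The ASNS call was lost without MYC T58A library 1 or 3 or Resistant library 2 or 3 (adjusted p = 0.0938, 0.0933, 0.076 and 0.106). SLC38A2 was the member that was higher by the most (1.75-fold).

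The 2 groups with high MYC transcript, the shMYC2 label and MYC T58A, also differed. Under the shMYC2 label 10 members were higher, 15 lower and 7 not called, against 79.3% of all genes called (36.8% higher and 42.5% lower), and the libraries did not overlap for 28 members and for 81.9% of all genes. The median log2 difference of the members was -0.10, beside -0.07 over all genes. As a set the members were thus near the background here, with 78.1% of them called. All 5 enzymes were lower, the most for PCK2 (3.9-fold, log2 difference -1.96 with SE 0.0829, adjusted p = 1.59e-13). CTH was lower by the least (1.35-fold), and its call was lost with quantile normalisation (adjusted p = 0.361). VLDLR (3.82-fold), ATF4 (2.11-fold), DDIT4 (2.1-fold) and KLHL24 (2.11-fold) were the members that were higher by the most.

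Across all 5 groups, Resistant held the highest mean for 15 members, and in 14 of them its libraries were apart from those of the next group. The shMYC2 label was highest for 7 members (6 apart), the shMYC1 label for 5 (2 apart), MYC T58A for 4 (1 apart) and Parental for DDIT4 alone. The lowest mean was under the shMYC2 label for 12 members, under the shMYC1 label and with MYC T58A for 7 each, in Parental for 4 and in Resistant for EIF2AK3 and SLC38A2. These counts were not taken over all genes, so they are not read as traits of the members. Under the shMYC2 label 43% of all genes were lower and 36.2% higher than in Resistant. NUPR1 had the widest span of group means (121.6 times), followed by SLC1A4 (48.9 times) and JDP2 (18.8 times), and EIF2AK3 the narrowest (1.17 times).

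Genes of the same pathway outside the 32 were read from lists that do not share members with them. Their counts are to be read against the shares of all genes called higher and lower, which were 27.2% and 24.4% in Resistant against Parental, 30.1% and 33.7% with MYC T58A, and, against Resistant, 27% and 30.1% under the shMYC1 label and 36.2% and 43% under the shMYC2 label. Of 14 amino acid synthesis enzymes, 11 rose in Resistant (median log2 difference 0.43, beside 0.01 over all genes) and the other 3 were not called. The largest rises were in ALDH1L2, a mitochondrial folate enzyme (2734 against 532), and in PSAT1 and PSPH of serine synthesis (9313 against 4827 and 1546 against 901). With MYC T58A 8 rose and 3 fell (median 0.44), led by PSAT1 (9784 against 4827). Against Resistant, 1 rose and 8 fell under the shMYC1 label, while 3 rose and 11 fell under the shMYC2 label, where PHGDH, the first enzyme of serine synthesis, was at 10.1 against 4726 in Resistant. Of 12 cytosolic aminoacyl-tRNA synthetases, which charge tRNAs, 10 rose and 2 fell in Resistant (median 0.35), with WARS at 8800.1 against 3925. Under the shMYC1 label 10 of them fell and 2 rose, under the shMYC2 label 9 fell and 2 rose, and with MYC T58A 7 rose and 3 fell.

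Of 26 secreted and other genes that respond to ATF4, 18 rose and 3 fell in Resistant, with a median log2 difference of 1.05 beside 0.01 over all genes. The largest rises were in the secreted signals INHBE (152 against 2.07) and ADM2 (161 against 15.2) and in the chaperone CLGN (241 against 34.9). With MYC T58A 8 rose and 8 fell (median -0.03), counts near the shares of all genes (30.1% and 33.7%), and GDF15, a circulating stress hormone, led at 2462 against 89.3. Against Resistant 20 fell and 2 rose under the shMYC1 label, where 30.1% of all genes fell, and 17 fell and 6 rose under the shMYC2 label, where 43% of all genes fell.

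Other parts of the stress network were mixed, beside 27.2% of all genes higher and 24.4% lower in Resistant and 30.1% and 33.7% with MYC T58A. Of 25 endoplasmic reticulum chaperones and genes of the ATF6 and XBP1 branches, 9 rose and 4 fell in Resistant (median 0.07), with CANX (25252 against 38977) and PDIA6 (7922 against 12118) lower, and 13 fell and 3 rose with MYC T58A (median -0.13). Of 20 genes for eIF2, eIF2B, their kinases and phosphatase partners, 4 rose and 8 fell in Resistant (median 0.02), and 9 rose and 5 fell with MYC T58A. PPP1R15B, the constitutive partner of the eIF2 phosphatase, was at 7999 against 5414 in Resistant and at 3304 against 5414 with MYC T58A. Of 15 other amino acid transporters, 8 rose and 5 fell in Resistant (median 0.31), and 7 rose and 6 fell with MYC T58A. Of 20 mTORC1 and amino acid sensing genes, 7 rose and 2 fell in Resistant (median 0.09), led by the Rag GTPase RRAGD (486 against 125), and 9 rose and 7 fell with MYC T58A. Against Resistant, the shMYC1 and shMYC2 labels gave 9 and 10 higher and 7 and 9 lower for the chaperones, 10 and 10 higher and 6 and 6 lower for the eIF2 genes, 4 and 7 higher and 8 and 7 lower for the transporters, and 6 and 8 higher and 8 and 9 lower for the mTORC1 genes. The shares of all genes there were 27% and 36.2% higher and 30.1% and 43% lower. Counts near them were those of the chaperones and mTORC1 genes under both labels and of the transporters under the shMYC2 label.

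Members were also set beside their neighbours on the chromosome, since a whole region can shift together. The median log2 difference of the 25 tested genes on either side of each was taken from GENCODE v29 positions on GRCh38, where 14217 of 17012 tested genes had 1 position, and gene order alone was used. TRIB3 had 29 such neighbours in all and VLDLR 31, and each other member had 50. In Resistant against Parental, STC2 rose by 2.32 where its neighbours had a median of -0.48, and ATF3 by 0.84 where they had 0.41. The small fall of EIF2AK3 (-0.21) was close to that of its region (-0.20). For TRIB3, not called at 0.07, the neighbours were at -0.49. With MYC T58A the fall of SESN2 was close to that of its region (-0.53 beside -0.56). DDIT3 (-0.41 beside -0.63) and XPOT (-0.25 beside -0.49) fell by less than their regions. SLC6A9 went further than its region (-1.89 beside -0.53), and CTH and CEBPB rose where their regions were lower (-0.56 and -0.46). Against Resistant, SLC1A4 (0.39 beside 0.41) and EIF2AK3 (0.22 beside 0.20) were near their regions under the shMYC1 label. KLHL24 was higher by less than its region under the shMYC2 label (0.59 beside 0.87). There SLC38A2 was level with its region (0.26 beside 0.26), and HERPUD1 fell by less than its region (-0.25 beside -0.43). Under the shMYC2 label SLC1A4 was at -5.13 where its neighbours had 0.42, and ATF3 at -1.50 where they had -0.75. The part of regional shifts in the members' differences was not tested.

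**Figure D4:**
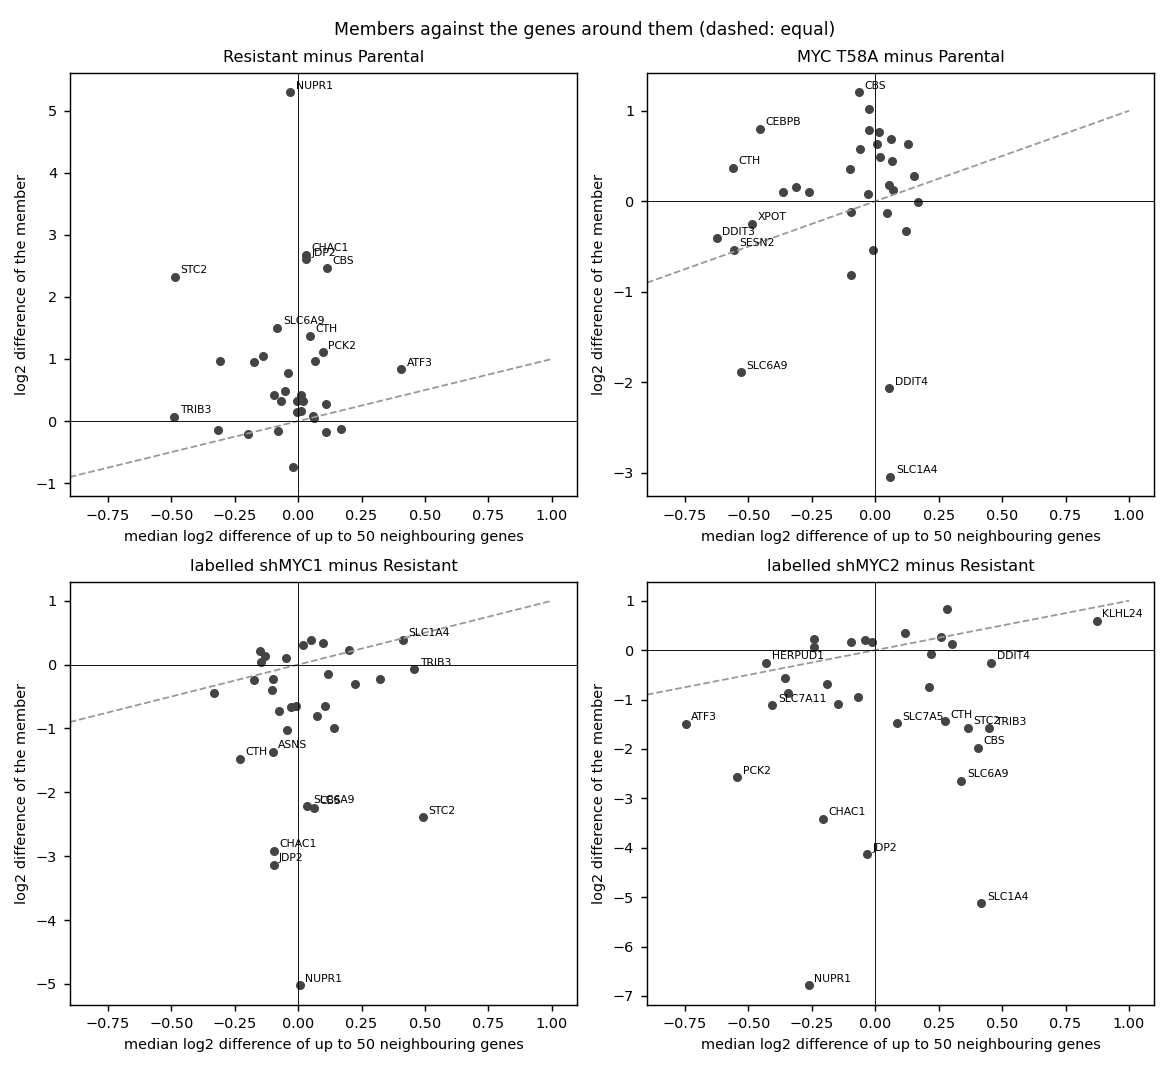
Log2 difference of each member (y axis) against the median log2 difference of its chromosomal neighbours (x axis) in 4 comparisons, with a line of equality. NUPR1 and STC2 lie far from the line in Resistant against Parental, and SESN2 lies near it with MYC T58A.

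Several members share bases with an opposite-strand gene of the table, by GENCODE v29: EIF2AK3, ATF5 (with IL4I1 and NUP62), DDIT3 (with MARS and MBD6), SLC7A11 (with its antisense partner), SLC6A9 (with CCDC24) and PCK2 (with NRL). The library kit keeps strand, but the strand counted is not given in the sources used here, so reads of these pairs cannot be told apart.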

How the data were processed

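Stranded mRNA libraries (Kapa kit) were made from RNA purified with Qiagen RNeasy columns, per the labels' protocols. The authors used Trim Galore, cutadapt, STAR, HTSeq and DESeq2, per the submitters' processing notes. Build, annotation and counting strand: not given in the sources used here. Signal values, 1 per gene symbol and library, are what the authors deposited. Each library's values were whole multiples of 1 step (100% within 0.01), so they are reads divided by a size factor, and reads were recovered from them. Columns carry a group name, and libraries are numbered in column order.

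A gene was tested if 3 or more libraries reached a value of 10 (17012 of 18322 genes). With limma 3.58.1 in R 4.3.3, using the trend and robust options, 5 group means were fitted to log2(value + 1) over the 15 libraries, on 10 residual degrees of freedom. P-values were adjusted by Benjamini-Hochberg over all 17012 genes and called under 0.05. An exact permutation test of 3 against 3 libraries cannot go below p = 0.1, so single values were not tested that way. On simulated data for Resistant against Parental (16113 genes), 50 genes were changed at each of 1.5, 2, 4 and 8-fold. The fit recovered 94% of those changed 1.5-fold and 100% of those at 2, 4 and 8-fold, and 6.64% of its calls were false. These figures hold for that setting only. Recovery and the share of false calls with as many changes as in the measured libraries, where 51.6% of genes were called, was not tested.

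Described with every library are members with a called log2 difference of at least 1 in any of the comparisons of Resistant and MYC T58A with Parental and of either hairpin label with Resistant, plus ATF4, EIF2AK3, PPP1R15A, DDIT3 and DDIT4. CEBPB is also given by library for its spread, a choice made after its values were seen. Of other lists, up to 3 called genes with the largest difference per comparison are named. The members and lists were chosen with earlier results of these data known. Alternatives were edgeR 4.0.16 (quasi-likelihood) and DESeq2 1.42.0 on recovered reads, other scalings, filters, pseudocounts and thresholds, the compared groups alone, and each library left out. A fit without the libraries labelled shMYC2 was chosen after seeing the data.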

Additional observations from a re-analysis of the deposited data

Results flagged for a closer look

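For 9 members the libraries labelled shMYC1 and shMYC2 were called in opposite directions against Resistant, and the labels also differed when compared directly. The share of all genes called in opposite directions was not taken, so this count is not read as a trait of the members. Of all genes, 57.1% were called for the shMYC1 label and 79.2% for the shMYC2 label against Resistant. The log2 difference of shMYC2 minus shMYC1 was 0.87 for ATF4, 1.08 for the arginine and lysine carrier SLC7A1, 0.46 for VLDLR, 1.26 for KLHL24 and 0.42 for the tRNA exporter XPOT, which were higher under the shMYC2 label. It was -0.57 for DDIT4, -1.33 for SLC7A11, -1.42 for SLC3A2 and -5.52 for SLC1A4, which were lower there. The calls of ATF4, VLDLR and XPOT as higher than Resistant under the shMYC2 label were lost with equal library totals (adjusted p = 0.228, 0.749 and 0.268), so for these 3 the opposite directions depended on the scaling. In all, 25 of the 32 members differed between the labels (11 higher and 14 lower under the shMYC2 label), as did 78.6% of all tested genes, so the share among the members is that of the background. The MYC transcript differed between the labels as well (486 ± 29.5 and 7817 ± 259.8), and its part in these differences was not tested.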

How the results depend on the processing

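No member's called difference turned direction under any alternative run. Of 174 called member differences over 7 comparisons, 88 kept their call under every alternative. The other 86 all lost it against a minimum change of 0.5, while 17 lost it under another scaling, filter, pseudocount, tool or sample choice, 18 at an adjusted p under 0.01 and 18 when 1 library was left out. When limma's TREAT required a change above 0.5 (log2), 13 members stayed higher and 1 lower in Resistant against Parental, 6 higher and 4 lower with MYC T58A, 0 higher and 14 lower under the shMYC1 label and 1 higher and 18 lower under the shMYC2 label against Resistant, 1 higher and 14 lower in MYC T58A against Resistant, and 5 higher and 11 lower under the shMYC2 label against MYC T58A. For the shMYC1 label against Parental the counts under that test were 0 higher and 0 lower (1 and 0 at an unadjusted p under 0.05). For higher members under the shMYC1 label against Resistant the unadjusted count was also 0. Of all genes, TREAT called 2541 (8781 without the minimum) in Resistant against Parental, 3973 (10862) with MYC T58A, 3206 (9713) and 8206 (13474) for the shMYC1 and shMYC2 labels against Resistant, 1173 (6730) for the shMYC1 label against Parental, 4950 (11532) for MYC T58A against Resistant, and 8225 (13484) for the shMYC2 label against MYC T58A.

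At an adjusted p under 0.01, 2 members were lower in Resistant against Parental and 2 higher in MYC T58A against Resistant. With equal library totals, 4 were higher under the shMYC2 label against Resistant. Leaving out each library gave 2 to 4 lower in Resistant against Parental, with 2 without Parental library 3 or Resistant library 1, and 3 to 6 higher in MYC T58A against Resistant, with 3 without MYC T58A library 1 or Resistant library 1. For the shMYC1 label against Parental it gave 5 to 9 higher and 8 to 9 lower. In the shMYC2 comparison with Resistant, quantile normalisation moved the share of calls that were higher from 45.7% to 56% and the median of all genes from -0.08 to 0.15, and equal totals moved the median to -0.22. Equal totals moved that share in shMYC1 against Parental from 49.8% to 37.5% and the median in shMYC2 against MYC T58A to -0.24. No paired analysis was possible because the table's columns carry no replicate number.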

Other observations

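The antisense partner of the cystine transporter gene SLC7A11, SLC7A11-AS1, was picked out after its values were seen. It stood at 5397, 5227 and 5884 in the libraries labelled shMYC2, at 43.1, 38.4 and 36.1 with MYC T58A, and between 1.02 and 9.6 in each Parental, Resistant and shMYC1 library. The libraries labelled shMYC2 and MYC T58A are also those with the highest MYC transcript, and a link between MYC and this antisense transcript was not tested. The annotated spans of SLC7A11 and SLC7A11-AS1 share 14081 bases on opposite strands. SLC7A11 itself had its lowest level in the libraries labelled shMYC2 (901, 798 and 931). With MYC T58A it was not called against Parental by limma (adjusted p = 0.0819). Which strand was counted is not given in the sources used here, so reads of the pair cannot be told apart.

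Pseudogene copies of 3 members were in the table at low levels. ASNSP1 was at 16.6 ± 2.41 in Resistant and had no read in the libraries labelled shMYC2. XPOTP1 ranged from 17.7 ± 5.36 under the shMYC1 label to 25.8 ± 11.4 in Resistant, and SLC7A5P1 from 4.01 ± 3.52 in Resistant to 24.1 ± 4.39 with MYC T58A.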
